A study of Homo sapiens with 15 samples.

Results

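The human counts of A549 tumours grown in nude mice were searched for 45 interferon-stimulated genes, listed by symbol, among the 60649 human genes of the count table. All 45 were found and 44 passed the filter on low counts, as part of 15435 human genes tested. IRF9 did not pass. A549 is 1 established line of human lung adenocarcinoma cells, and nude mice lack mature T cells. 5000000 cells were placed under the skin of each BALB/c nude mouse, and 1 library was made per tumour. The no-stress mice (n = 5) stayed free. For the stress mice (n = 5) the labels place restraint 7 days ahead of transplantation, and for the post-stress mice (n = 5) 12 days after it, without saying whether either number is a duration or a starting day. The cells, the host strain and the tumour site are shared by all 3 groups, and each group had its restraint, or none, as its only labelled difference.

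Interferons are secreted proteins with which cells warn each other of virus infection or of nucleic acid in the wrong place. Type I and type III interferons bind their receptors, which activate the kinases JAK1 and TYK2. These phosphorylate STAT2, which with IRF9 is part of a complex that binds interferon-stimulated response elements (ISREs) in promoters and switches on a large set of antiviral genes. Type II interferon acts mainly through another promoter element, the gamma-activated site (GAS). In tumours the same genes can be on at a low level without infection.

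Levels are given as CPM, the count of a gene relative to all human counts of its tumour, scaled between tumours by the trimmed mean of M-values (TMM). A gene was called changed when the Benjamini-Hochberg adjusted p of edgeR's quasi-likelihood test, over all 15435 genes, was under 0.05. Total counts per tumour ranged from 16729091 to 19680449 and human counts from 12877165 to 15892705. Counts on mouse genes made up 12.4% to 30.2% of a library, 15.6% to 30.2% in no-stress, 18.6% to 24.6% in stress and 12.4% to 23.0% in post-stress tumours. Of 18 leukocyte genes looked up in the human rows, C1QA and C1QB were at 0 in every tumour and 12 were under 1 CPM in every tumour. Their summed level was 198 to 1355 CPM in no-stress, 226 to 265 in stress and 119 to 511 in post-stress tumours. Most of it came from S100A8 and S100A9, which were at 598 and 729 CPM in no-stress replicate 1 and at 371 and 572 in no-stress replicate 5, and none of the 5 tested leukocyte genes was called between stress and no stress. Of 3 tested endothelial genes none was called. Of 6 tested genes of fibroblasts, muscle or fat 1 rose, PLIN1, a coat protein of lipid droplets in fat cells (1.91 CPM without and 3.89 with stress; adjusted p = 0.0216), and its call was lost without no-stress replicate 1 or 3 or stress replicate 1. The log2 fold changes of the 6 ran from -0.18 to 1.46 with a median of 0.40. Of these estimates 5 were above 0 and 1 below. All 14 genes typical of A549 cells summed to 20986 to 27223 CPM in no-stress, 19829 to 23279 in stress and 21687 to 26012 in post-stress tumours. Of the 13 tested, 2 fell in stress against no stress and none rose, against 5.22% lower and 5.23% higher over all tested genes. The lower adjusted p of these 2 was 0.0280. The other gene, ALDH3A1, fell by 0.53 on the log2 scale (adjusted p = 0.0440). This call was lost when no-stress replicate 1, 2, 3 or 4, stress replicate 1, 2, 3 or 5 or post-stress replicate 2 or 4 was left out. PLIN1 and ALDH3A1 were named after their values were seen, and the part of other cells in the results was not tested. Mouse genes carried no symbols in the references used, and interferon-stimulated genes of the host were not analysed here.

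Interferon-stimulated genes were higher in tumours of mice restrained before transplantation. Of the 44 tested, 27 rose against no stress (61.4%), none fell and 17 did not pass the test. Over all tested genes, 5.23% were called higher and 5.22% lower in this comparison. The median log2 fold change of the 44 was 1.10 (0.10 to 1.83), against -0.01 over all tested genes, and all 44 estimates were above 0. In 39 of the 44 at least 4 of 5 stress tumours lay above every no-stress tumour (88.6%), which held for 10.9% of all tested genes. In none of the 44 did all 5 lie above, which held for 4.09% of all genes. In bulk tumour RNA, more cells that express a gene and more RNA per cell cannot be told apart. The number called depended on which tumours entered. Leaving out no-stress replicate 1 or 3 gave 6 and 11 calls, and leaving out stress replicate 1, 2, 3 or 5 gave 7, 14, 10 and 12. Calls over all tested genes, higher or lower, fell as well. They were 4.23% and 5.53%, and 5%, 6.94%, 6.67% and 6.86%, in the same order. Leaving out stress replicate 4 gave 39, with 11.8% of all tested genes called. Without no-stress replicates 1 and 5, the tumours with the largest mouse shares, 2 genes were called and the median log2 fold change was 0.99. That fit called 3.42% of all tested genes.

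**Figure D1:**
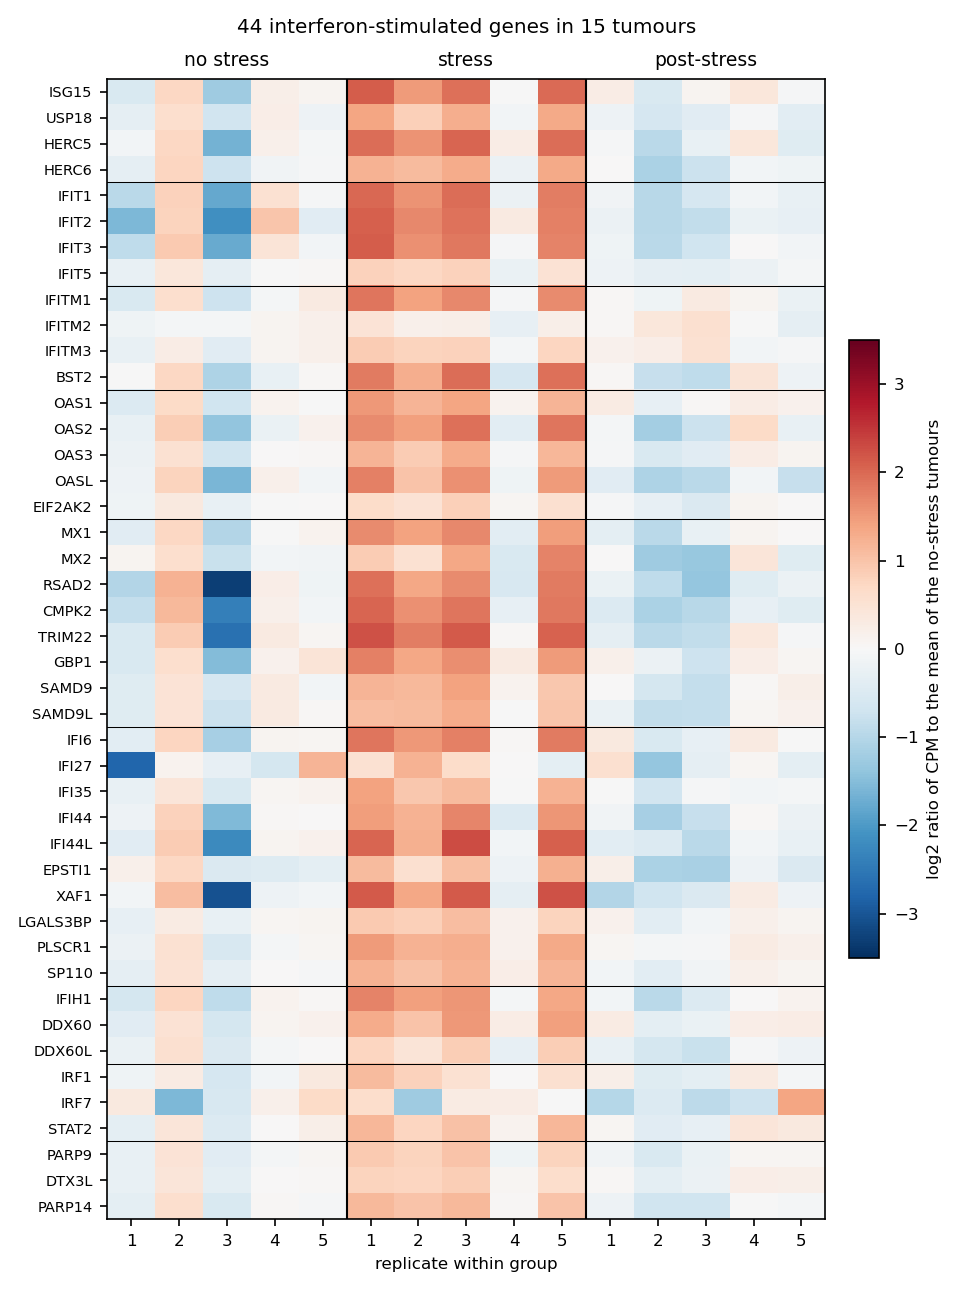
Colour gives the log2 ratio of each gene's CPM to the mean of the 5 no-stress tumours, for 44 genes (rows, grouped by role) in 15 tumours (columns, by group and replicate). Stress replicates 1, 2, 3 and 5 are red in most rows, and stress replicate 4 is near white.

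The same tumours stood high or low for nearly every gene. Stress replicate 4 was the lowest of its group for 42 of 44 genes, and for 43 of 44 it lay inside the range of the no-stress tumours. For IFITM2 it lay below that range. The median ratio to the no-stress mean over the 44 genes was 2.61, 2.19, 2.58, 0.98 and 2.52 in stress replicates 1 to 5. In the no-stress tumours it was 0.81, 1.505, 0.61, 1.05 and 1.03. In the post-stress tumours it was 0.97, 0.65, 0.71, 1.06 and 0.96. Over all tested genes that median was between 0.98 and 0.99 in each tumour. No-stress replicate 2 was the highest of its group for 39 genes and no-stress replicate 3 the lowest for 40. Among all tested genes these positions held for 18.8% and 16.6%, and stress replicate 4 was lowest for 21.6%. Among the 780 other genes called higher in the stress group, stress replicate 4 was lowest for 47.3%, no-stress replicate 2 highest for 33.1% and no-stress replicate 3 lowest for 27.3%.

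The summed level of the 44 genes was 4544, 8537, 3731, 6411 and 6174 CPM in no-stress replicates 1 to 5. It was 15136, 12494, 14867, 5858 and 13663 CPM in the stress tumours, and 6063, 4318, 5011, 6420 and 5881 CPM in the post-stress tumours. The mean was 5880 ± 1860 CPM without stress, 12404 ± 3807 with stress and 5539 ± 857 post-stress (SD, n = 5 each). The spread within groups was wide for these genes. Their median coefficient of variation was 38.7% in no-stress, 33.6% in stress and 24.1% in post-stress tumours, against 14.2%, 14.7% and 15.8% over all tested genes. Mouse shares of stress replicates 1 to 5 were 20.8%, 18.6%, 19.4%, 21.8% and 24.6%, so that stress replicate 4 lay inside the range of the other 4. With the mouse share as a covariate 23 of the 27 genes and 9.52% of all tested genes were called. The median log2 fold change of the 44 genes was then 1.10.

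**Figure D2:**
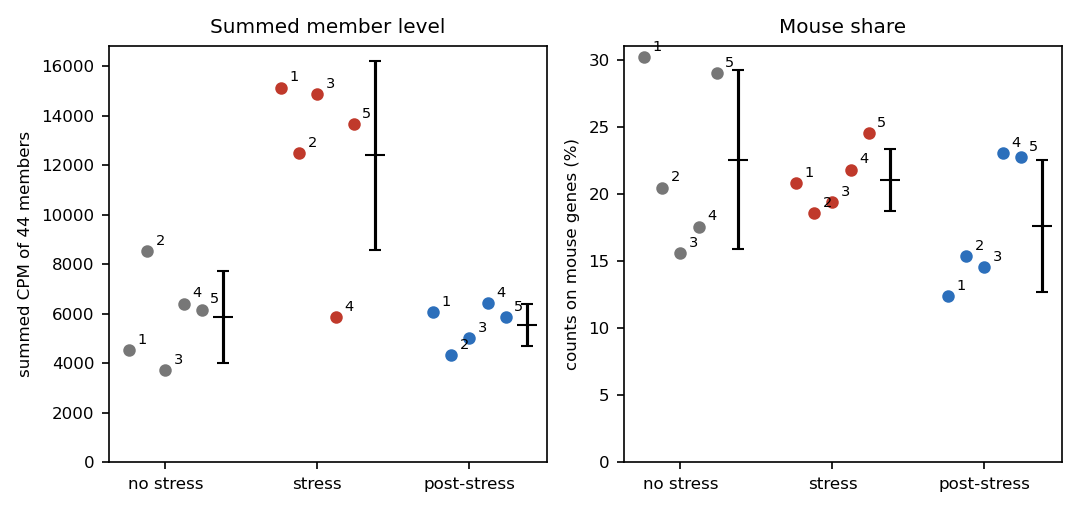
Left, summed CPM of the 44 genes per tumour; right, percent of counts on mouse genes. Points are tumours numbered by replicate, and bars are the mean ± SD of 5 tumours. Stress replicates 1, 2, 3 and 5 sit between 12494 and 15136 CPM, and stress replicate 4, at 5858, sits among the other groups.

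The letters of an ISRE core were common in these promoters. In windows of 300 bases (250 before and 50 after a RefSeq start site, build GRCh38.p14), GAAANNGAAA or its reverse complement TTTCNNTTTC was present for 27 of the 37 genes that had a window (73.0%). It was present for 1195 of all 27305 human genes with a window (4.38%). The genes were listed as interferon-stimulated beforehand, and the windows are reference sequence, so these shares describe the list and not the tumours. The letters TTCNNNGAA of a GAS, which read the same on both strands, were present for 13 of 37 (35.1%) and for 9.38% of all genes. 15 genes held at least 2 ISRE matches and 4 held 3, counting matches that overlap each other. Genes outside the list were not counted in this way. Matches to the 2 motifs can share bases and were counted separately. The stretches shown here come from 13 genes whose values follow, and give single, paired and triple matches. Each is printed 5′ to 3′ in the direction of its gene, lies before the start site, and has the matches in capitals.
ISG15 (chr1:1013364-1013419, plus strand): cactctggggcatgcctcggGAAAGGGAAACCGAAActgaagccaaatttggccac
HERC5 (chr4:88456974-88457074, plus strand): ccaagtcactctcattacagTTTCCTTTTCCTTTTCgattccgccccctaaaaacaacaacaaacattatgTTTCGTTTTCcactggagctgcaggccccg
IFIT1 (chr10:89392487-89392549, plus strand): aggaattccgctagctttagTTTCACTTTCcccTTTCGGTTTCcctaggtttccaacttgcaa
IFIT3 (chr10:89327821-89327904, plus strand): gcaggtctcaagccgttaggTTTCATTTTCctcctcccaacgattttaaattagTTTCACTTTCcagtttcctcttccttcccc
IFITM3 (chr11:320866-320932, minus strand): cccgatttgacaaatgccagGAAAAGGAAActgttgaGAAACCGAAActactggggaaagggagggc
BST2 (chr19:17405725-17405780, minus strand): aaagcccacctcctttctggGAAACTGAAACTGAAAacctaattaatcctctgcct
IFI6 (chr1:27672256-27672368, minus strand): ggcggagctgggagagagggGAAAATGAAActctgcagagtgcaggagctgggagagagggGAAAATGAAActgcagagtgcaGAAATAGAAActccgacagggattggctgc
GBP1 (chr1:89065306-89065355, minus strand): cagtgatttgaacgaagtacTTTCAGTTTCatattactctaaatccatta
LGALS3BP (chr17:78979952-78980001, minus strand): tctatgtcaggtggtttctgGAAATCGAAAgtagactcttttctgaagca
PLSCR1 (chr3:146544657-146544706, minus strand): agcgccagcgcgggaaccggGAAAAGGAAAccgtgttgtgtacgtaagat
DDX60 (chr4:168318776-168318860, minus strand): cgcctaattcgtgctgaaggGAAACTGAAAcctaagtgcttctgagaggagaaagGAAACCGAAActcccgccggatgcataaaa
PARP9 (chr3:122564312-122564361, minus strand): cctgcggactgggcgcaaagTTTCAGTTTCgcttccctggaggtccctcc
PARP14 (chr3:122680790-122680838, plus strand): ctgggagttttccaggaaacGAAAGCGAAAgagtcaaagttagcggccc
The matches are letters only, and binding of any factor was not measured here. In ISG15 and BST2 the capitals are 2 matches that overlap, and in HERC5 2 of the 3 overlap. IFI6 and DDX60 hold separate matches. The 27 genes with an ISRE match had a median log2 fold change of 1.16 between stress and no stress (0.52 to 1.73), and 21 of them were called changed. The 9 tested genes whose window held none (HERC6, OAS1, CMPK2, SAMD9L, IFI35, XAF1, SP110, IRF1 and STAT2) had a median of 1.02 (0.65 to 1.76), with 4 called. Over all tested genes 5.23% were called higher and 5.22% lower. The ranges of genes with and without a match overlapped widely, and a difference between them was not tested.

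ISG15 is a small ubiquitin-like protein that is attached to other proteins during an interferon response. ISG15 was at 127, 308, 78.4, 214 and 198 CPM in no-stress replicates 1 to 5, 804, 521, 704, 183 and 736 in the stress and 223, 128, 198, 244 and 180.2 in the post-stress tumours. ISG15 averaged 185 ± 87.9 CPM without and 589 ± 250.4 with stress (SD, n = 5), a log2 fold change of 1.67 ± 0.40 (SE; adjusted p = 0.0223). HERC5 is the main ligase that attaches it. HERC5 was at 5.62, 9.91, 1.92, 6.88 and 5.801 CPM in no-stress replicates 1 to 5, 23.3, 17.99, 24.9, 7.23 and 23.4 in the stress and 5.802, 3.15, 5.05, 7.94 and 4.49 in the post-stress tumours. HERC5 averaged 6.03 ± 2.87 CPM without and 19.4 ± 7.27 with stress (SD, n = 5), a log2 fold change of 1.69 ± 0.39 (SE; adjusted p = 0.0158). USP18 removes ISG15 from proteins and also blocks the type I interferon receptor. USP18 was at 14.5, 27.3, 11.3, 21.3 and 16.1 CPM in no-stress replicates 1 to 5, 46.8, 32.2, 43.6, 17.04 and 45.7 in the stress and 15.96, 11.98, 13.7, 17.5 and 13.97 in the post-stress tumours. USP18 averaged 18.1 ± 6.29 CPM without and 37.04 ± 12.6 with stress (SD, n = 5), a log2 fold change of 1.03 ± 0.27 (SE; adjusted p = 0.0261). For these 3 genes stress replicates 1, 2, 3 and 5 lay above every no-stress tumour and replicate 4 lay among them. HERC6, a relative of HERC5, had a log2 fold change of 1.05 and did not pass (adjusted p = 0.0588). The HERC5 call held without any 1 tumour. ISG15 no longer passed when replicate 1 of either the no-stress or the stress group was left out, and USP18 when no-stress replicate 1 or 3 or stress replicate 1, 3 or 5 was.

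The IFIT proteins bind foreign RNA and limit its translation. IFIT5 was at 66.7, 104, 64.2, 78.9 and 82.2 CPM in no-stress replicates 1 to 5, 139.6, 132, 138, 67.5 and 114 in the stress and 69.8, 63.9, 62.98, 69.2 and 75.99 in the post-stress tumours. IFIT5 averaged 79.2 ± 15.9 CPM without and 118 ± 30.1 with stress (SD, n = 5), a log2 fold change of 0.58 ± 0.17 (SE; adjusted p = 0.0429). IFIT3 partners with IFIT1 and stabilises its binding to RNA. IFIT3 was at 81.5, 283, 44.5, 206 and 142 CPM in no-stress replicates 1 to 5, 660.2, 462, 542, 147 and 505 in the stress and 138, 79.2, 93.1, 153 and 143 in the post-stress tumours. IFIT3 averaged 151 ± 95.9 CPM without and 463 ± 191 with stress (SD, n = 5), a log2 fold change of 1.61 ± 0.48 (SE; adjusted p = 0.0476). IFIT1 recognises RNA whose cap lacks a methyl group. IFIT1 was at 144, 483, 79.01, 398 and 269 CPM in no-stress replicates 1 to 5, 1099.9, 817, 1066, 236 and 950.1 in the stress and 251, 139, 182, 256 and 229 in the post-stress tumours. IFIT1 averaged 275 ± 169 CPM without and 834 ± 352 with stress (SD, n = 5), a log2 fold change of 1.60 ± 0.48 (SE; adjusted p = 0.0514). IFIT5 and IFIT3 rose, IFIT1 did not pass, and IFIT2 had a log2 fold change of 1.67 that did not pass either (adjusted p = 0.0666). In all 4 genes 4 stress tumours lay above every no-stress tumour. No-stress replicates 2 and 4 were the high ones for IFIT1, IFIT2 and IFIT3, and replicates 1 and 3 the low ones. The IFIT3 call was lost in 13 and that of IFIT5 in 12 of the 15 fits that left out 1 tumour. IFIT3 passed only without no-stress replicate 2 or stress replicate 4, and IFIT5 also without post-stress replicate 5. The IFIT genes are related in sequence, and reads that fit several of them can have been split in counting.

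The IFITM proteins sit in membranes and hinder the fusion of virus with the cell. IFITM1 was at 45.6, 98.7, 39.8, 63.3 and 81.7 CPM in no-stress replicates 1 to 5, 242, 176, 212, 64.5 and 206 in the stress and 67.1, 59.3, 82.1, 70.1 and 55.8 in the post-stress tumours. IFITM1 averaged 65.8 ± 24.6 CPM without and 180.0 ± 68.7 with stress (SD, n = 5), a log2 fold change of 1.45 ± 0.32 (SE; adjusted p = 0.0153). IFITM3 works mainly in endosomes. IFITM3 was at 343, 495, 309, 441 and 461 CPM in no-stress replicates 1 to 5, 757, 698, 716, 389 and 687 in the stress and 457, 480.1, 593, 384 and 399 in the post-stress tumours. IFITM3 averaged 410.0 ± 79.8 CPM without and 649.5 ± 148 with stress (SD, n = 5), a log2 fold change of 0.66 ± 0.18 (SE; adjusted p = 0.0261). BST2, also called tetherin, holds budding virus at the cell surface. BST2 was at 12.2, 20.5, 5.82, 10.3 and 12.7 CPM in no-stress replicates 1 to 5, 43.1, 29.98, 48.1, 8.18 and 47.2 in the stress and 12.6, 7.05, 6.59, 16.7 and 10.8 in the post-stress tumours. BST2 averaged 12.3 ± 5.32 CPM without and 35.3 ± 16.8 with stress (SD, n = 5), a log2 fold change of 1.52 ± 0.44 (SE; adjusted p = 0.0449). All 3 rose, with stress replicate 4 within the no-stress range. IFITM2 had 188 ± 17.3 CPM without stress and 212 ± 38.9 with stress (SD, n = 5), a log2 fold change of 0.17 ± 0.15 (SE; adjusted p = 0.507). IFITM1, IFITM2 and IFITM3 are near-identical neighbours, so that their counts are uncertain. IFITM1 and IFITM2 share 32.5% and 22.8% of their exon bases with each other on the same strand. IFITM3 shares 21.3% with another annotated gene on the other strand. The IFITM1 call held without any 1 tumour. That of IFITM3 was lost without no-stress replicate 1 or 3 or any 1 of stress replicates 1, 2, 3 and 5, and that of BST2 in 11 of 15 such fits, the exceptions being those without no-stress replicate 2, stress replicate 4 or post-stress replicate 3 or 4.

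OAS enzymes sense double-stranded RNA and make the messenger that activates RNase L. OAS1 was at 140.1, 308, 121, 215 and 192 CPM in no-stress replicates 1 to 5, 561, 445, 508, 212 and 445 in the stress and 239.8, 159.8, 200.1, 235 and 217 in the post-stress tumours. OAS1 averaged 195 ± 73.5 CPM without and 434 ± 133 with stress (SD, n = 5), a log2 fold change of 1.15 ± 0.27 (SE; adjusted p = 0.0174). OAS3 is the form that makes most of that messenger in human cells. OAS3 was at 297, 496, 211, 342 and 352 CPM in no-stress replicates 1 to 5, 778, 629, 838, 331 and 758 in the stress and 332, 236, 259.9, 405 and 362 in the post-stress tumours. OAS3 averaged 339.8 ± 104 CPM without and 666 ± 203 with stress (SD, n = 5), a log2 fold change of 0.97 ± 0.26 (SE; adjusted p = 0.0286). EIF2AK2, known as PKR, is a kinase that stops translation when it binds double-stranded RNA. EIF2AK2 was at 254, 355, 237, 279 and 282 CPM in no-stress replicates 1 to 5, 438, 400.3, 499.7, 293 and 415 in the stress and 273, 229, 198, 303 and 284 in the post-stress tumours. EIF2AK2 averaged 281 ± 45.2 CPM without and 409 ± 75.1 with stress (SD, n = 5), a log2 fold change of 0.54 ± 0.14 (SE; adjusted p = 0.0247). The 3 genes rose by different amounts, with PKR at the smallest fold change. OAS2 and OASL had larger estimates, 1.49 and 1.28 on the log2 scale, and did not pass (adjusted p = 0.0645 and 0.0611). The OAS1 call was lost without no-stress replicate 1. That of OAS3 was lost without no-stress replicate 1, 3 or 4 or stress replicate 1, 3 or 5, and that of EIF2AK2 without no-stress replicate 1 or 3 or stress replicate 1 or 3.

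The remaining antiviral effectors held 4 genes that rose among 8. GBP1 is a large GTPase that coats intracellular pathogens. GBP1 was at 20.4, 43.8, 10.3, 32.4 and 40.1 CPM in no-stress replicates 1 to 5, 100.1, 75.3, 90.1, 36.3 and 83.3 in the stress and 33.02, 25.3, 17.8, 34.9 and 30.6 in the post-stress tumours. GBP1 averaged 29.4 ± 13.9 CPM without and 77.01 ± 24.5 with stress (SD, n = 5), a log2 fold change of 1.39 ± 0.36 (SE; adjusted p = 0.0289). SAMD9 is a restriction factor of poxviruses. SAMD9 was at 156, 289.9, 138, 257 and 194 CPM in no-stress replicates 1 to 5, 475, 456, 554, 224 and 395 in the stress and 208, 134, 116, 212 and 241 in the post-stress tumours. SAMD9 averaged 207 ± 65.00 CPM without and 421 ± 124 with stress (SD, n = 5), a log2 fold change of 1.02 ± 0.28 (SE; adjusted p = 0.0330). MX1 is a dynamin-like GTPase that blocks influenza and other viruses. MX1 was at 83.4, 184, 54.7, 110.5 and 119.7 CPM in no-stress replicates 1 to 5, 350.2, 296, 352, 85.3 and 307 in the stress and 87.2, 57.6, 91.8, 119 and 111 in the post-stress tumours. MX1 averaged 110.5 ± 48.3 CPM without and 278 ± 111 with stress (SD, n = 5), a log2 fold change of 1.33 ± 0.38 (SE; adjusted p = 0.0423). TRIM22, the fourth, had the largest fold change of the 44 genes, with 32.3 ± 20.3 CPM without stress and 115 ± 47.7 with it (SD, n = 5). Its log2 fold change was 1.83 ± 0.53 (SE; adjusted p = 0.0458). CMPK2, RSAD2, MX2 and SAMD9L had log2 fold changes of 1.60, 1.46, 0.99 and 0.95 that did not pass (adjusted p from 0.0564 to 0.161). RSAD2, or viperin, stood at 1.11 CPM in no-stress replicate 3 and at 25.6 CPM in no-stress replicate 2, a wider span than that between the group means of 11.0 and 30.2 CPM. The GBP1 call was lost without no-stress replicate 1 or any 1 of stress replicates 1, 2, 3 and 5. That of SAMD9 was lost without those or no-stress replicate 3 or 5, that of MX1 in 12 of 15 fits that left out 1 tumour and that of TRIM22 in 13. TRIM22 passed only without no-stress replicate 2 or stress replicate 4, and MX1 also without post-stress replicate 2.

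SP110 is a nuclear body protein. SP110 was at 37.1, 64.7, 36.7, 46.3 and 44.2 CPM in no-stress replicates 1 to 5, 106, 93.98, 106, 53.5 and 104 in the stress and 43.03, 35.3, 41.9, 51.8 and 48.8 in the post-stress tumours. SP110 averaged 45.8 ± 11.4 CPM without and 92.8 ± 22.5 with stress (SD, n = 5), a log2 fold change of 1.02 ± 0.19 (SE; adjusted p = 0.00587). LGALS3BP is a secreted glycoprotein that binds galectins. LGALS3BP was at 555, 822, 564, 706 and 716 CPM in no-stress replicates 1 to 5, 1269, 1199, 1431, 741 and 1148 in the stress and 745, 520.0, 629.9, 754 and 715 in the post-stress tumours. LGALS3BP averaged 673 ± 113 CPM without and 1158 ± 256 with stress (SD, n = 5), a log2 fold change of 0.78 ± 0.16 (SE; adjusted p = 0.00668). PLSCR1 is a membrane protein with a role in the antiviral response. PLSCR1 was at 111, 183, 86.9, 122 and 134 CPM in no-stress replicates 1 to 5, 358, 294, 306, 140.1 and 319 in the stress and 134, 121, 124, 154 and 145 in the post-stress tumours. PLSCR1 averaged 127 ± 35.7 CPM without and 283 ± 83.6 with stress (SD, n = 5), a log2 fold change of 1.15 ± 0.22 (SE; adjusted p = 0.00750). These 3 genes had the smallest adjusted p of the 44. Each stayed called without any 1 tumour, as did HERC5, IFITM1 and DDX60. LGALS3BP and SP110 were called in all 25 alternative settings, while PLSCR1 was not called without no-stress replicates 1 and 5. For SP110, 20.9% of exon bases are shared with other annotated genes on the other strand.

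IFI6 and XAF1 mark the ends of the range of levels. Per kilobase of exon, IFI6 was the highest of the tested genes in the no-stress tumours, with 625 CPM per kb, followed by IFITM3 with 304 and ISG15 with 197. XAF1 was lowest, with 0.998 CPM per kb, after HERC5 with 1.26 and EPSTI1 with 1.57. IFI6 is a small membrane protein of mitochondria and the endoplasmic reticulum. IFI6 was at 416, 908, 242, 574 and 563 CPM in no-stress replicates 1 to 5, 1987, 1550.4, 1827, 558 and 1892 in the stress and 688, 372, 446, 675 and 532 in the post-stress tumours. IFI6 averaged 540.4 ± 246 CPM without and 1563 ± 585 with stress (SD, n = 5), a log2 fold change of 1.53 ± 0.37 (SE; adjusted p = 0.0208). XAF1 binds the apoptosis inhibitor XIAP. XAF1 was at 6.18, 14.03, 0.805, 5.802 and 6.17 CPM in no-stress replicates 1 to 5, 29.3, 17.01, 29.02, 5.27 and 30.8 in the stress and 3.25, 4.04, 4.63, 8.01 and 5.85 in the post-stress tumours. XAF1 averaged 6.599 ± 4.74 CPM without and 22.3 ± 11.01 with stress (SD, n = 5), a log2 fold change of 1.76 ± 0.56 (SE; adjusted p = 0.0648). IFI6 rose, and XAF1, with a larger estimate and a larger SE, did not pass. For XAF1, 38.3% of exon bases are shared with another annotated gene on the other strand. IFI35 and IFI44L also rose, with log2 fold changes of 1.01 and 1.73 (adjusted p = 0.0180 and 0.0412). IFI44 (1.26), EPSTI1 (0.84) and IFI27 (0.52) did not pass, with adjusted p of 0.0783, 0.103 and 0.601. IFI27 did not follow the shared order of tumours, with 9.76, 72.7, 54.8, 43.8 and 152 CPM without stress and 96.7, 155, 104, 67.3 and 52.6 CPM with stress. IFI6 and IFI35 no longer passed when replicate 1 of either the no-stress or the stress group was left out. The IFI44L call was lost in 12 of 15 fits that left out 1 tumour, the exceptions being those without no-stress replicate 2, stress replicate 4 or post-stress replicate 3.

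**Figure D3:**
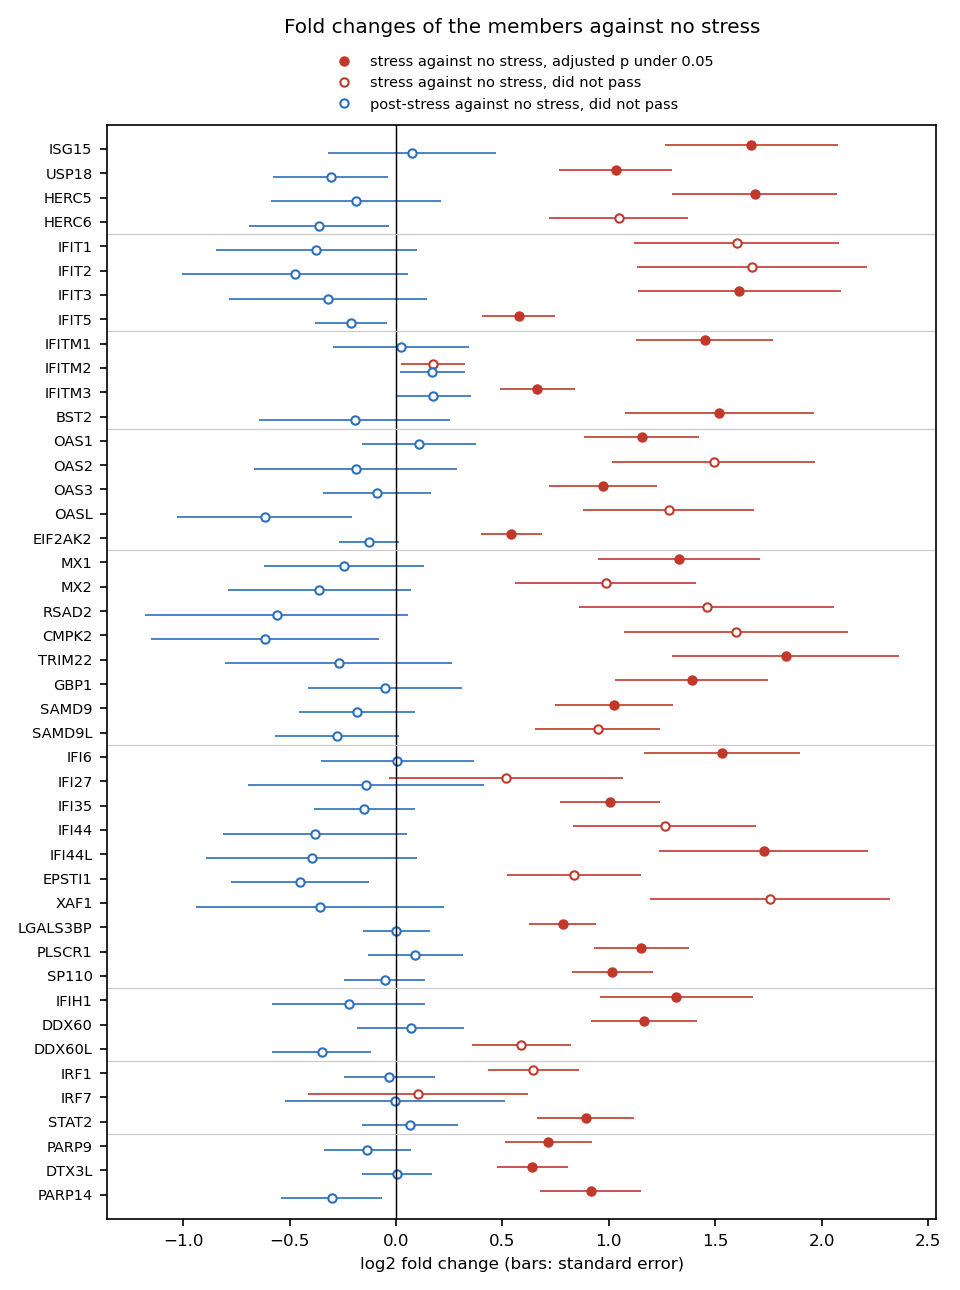
Log2 fold change ± SE of 44 genes for stress (red) and post-stress (blue) against no stress, grouped by role; filled points passed an adjusted p under 0.05. The 27 filled points are red and lie right of 0, and no blue point is filled.

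Cytosolic sensors of viral RNA were represented by IFIH1 and the DDX60 pair. IFIH1, or MDA5, senses long double-stranded RNA. IFIH1 was at 39.5, 102, 32.3, 66.04 and 61.8 CPM in no-stress replicates 1 to 5, 201, 162, 177, 57.1 and 155 in the stress and 56.4, 31.6, 43.7, 60.9 and 66.1 in the post-stress tumours. IFIH1 averaged 60.4 ± 27.4 CPM without and 150.4 ± 54.99 with stress (SD, n = 5), a log2 fold change of 1.32 ± 0.36 (SE; adjusted p = 0.0361). DDX60 is a helicase that assists such sensors. DDX60 was at 34.1, 64.05, 29.3, 48.4 and 49.6 CPM in no-stress replicates 1 to 5, 111, 90.3, 129, 54.2 and 121 in the stress and 54.6, 35.2, 38.4, 53.4 and 54.5 in the post-stress tumours. DDX60 averaged 45.1 ± 13.8 CPM without and 101 ± 29.9 with stress (SD, n = 5), a log2 fold change of 1.16 ± 0.25 (SE; adjusted p = 0.0125). DDX60L is its close relative. DDX60L was at 83.1, 143, 68.7, 92.5 and 97.3 CPM in no-stress replicates 1 to 5, 163, 133, 176, 79.1 and 177 in the stress and 81.2, 62.8, 56.2, 93.6 and 86.3 in the post-stress tumours. DDX60L averaged 96.9 ± 27.8 CPM without and 146 ± 41.3 with stress (SD, n = 5), a log2 fold change of 0.59 ± 0.23 (SE; adjusted p = 0.123). IFIH1 and DDX60 rose and DDX60L did not pass, with 3 of 5 stress tumours above every no-stress tumour. The DDX60 call held without any 1 tumour. That of IFIH1 was lost without any 1 of no-stress replicates 1, 3, 4 and 5 or stress replicates 1, 2, 3 and 5.

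Of the transcription factors, STAT2 rose. STAT2 was at 85.8, 146, 77.95, 110.2 and 125 CPM in no-stress replicates 1 to 5, 244, 184, 221, 119 and 244 in the stress and 114, 83.01, 88.9, 146 and 138 in the post-stress tumours. STAT2 averaged 109 ± 28.00 CPM without and 202 ± 52.6 with stress (SD, n = 5), a log2 fold change of 0.89 ± 0.23 (SE; adjusted p = 0.0255). IRF1 is induced by interferons, most strongly by type II. IRF1 was at 32.4, 43.2, 23.7, 33.4 and 45.4 CPM in no-stress replicates 1 to 5, 76.6, 62.3, 51.3, 36.2 and 52.2 in the stress and 40.9, 26.8, 27.9, 44.5 and 34.1 in the post-stress tumours. IRF1 averaged 35.6 ± 8.83 CPM without and 55.7 ± 14.96 with stress (SD, n = 5), a log2 fold change of 0.65 ± 0.21 (SE; adjusted p = 0.0654). IRF7 drives transcription of type I interferon genes. IRF7 was at 7.73, 2.06, 4.09, 6.88 and 9.67 CPM in no-stress replicates 1 to 5, 9.34, 2.58, 7.41, 7.23 and 5.997 in the stress and 3.04, 4.38, 3.23, 3.66 and 15.9 in the post-stress tumours. IRF7 averaged 6.08 ± 3.01 CPM without and 6.51 ± 2.501 with stress (SD, n = 5), a log2 fold change of 0.10 ± 0.52 (SE; adjusted p = 0.928). IRF1 did not pass, with 22% of its exon bases shared with other annotated genes on the other strand. The 3 groups overlapped for IRF7, whose log2 fold change did not pass, and its highest tumour was post-stress replicate 5. IRF9, the DNA-binding part of the complex with STAT2, had 32 counts over all 15 tumours, at most 7 in 1 tumour and 0 in 4 tumours. In the annotation used here 48.4% of its exon bases are shared with another gene, and its true level cannot be read from these counts. The STAT2 call was lost without no-stress replicate 1 or 3 or stress replicate 1, 3 or 5.

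PARP9, DTX3L and PARP14 lie on 1 stretch of chromosome 3, and all 3 rose. PARP9 and DTX3L form a complex that modifies proteins with ADP-ribose and ubiquitin. Their windows overlap by 137 bases (chr3:122564251-122564387) because the genes start next to each other on opposite strands. The match shown above for PARP9 lies in that overlap. It is also the match of DTX3L, so that the same bases were counted for both genes. PARP9 was at 214, 353, 196, 245 and 270.5 CPM in no-stress replicates 1 to 5, 479.6, 439, 513, 229 and 439.6 in the stress and 234, 175, 217, 271 and 267 in the post-stress tumours. PARP9 averaged 256 ± 61.6 CPM without and 419.9 ± 111 with stress (SD, n = 5), a log2 fold change of 0.72 ± 0.20 (SE; adjusted p = 0.0370). DTX3L is the ubiquitin ligase of the pair. DTX3L was at 226, 367, 216, 276 and 281 CPM in no-stress replicates 1 to 5, 472, 457, 495, 285 and 420.2 in the stress and 282, 216, 236, 324 and 314 in the post-stress tumours. DTX3L averaged 273 ± 60.1 CPM without and 426 ± 83.2 with stress (SD, n = 5), a log2 fold change of 0.64 ± 0.17 (SE; adjusted p = 0.0237). PARP14 adds single ADP-ribose units. PARP14 was at 256, 489.6, 223, 335 and 317 CPM in no-stress replicates 1 to 5, 712, 651, 714, 333 and 645 in the stress and 287, 198, 200.4, 318 and 309.5 in the post-stress tumours. PARP14 averaged 324 ± 103 CPM without and 611 ± 159 with stress (SD, n = 5), a log2 fold change of 0.91 ± 0.24 (SE; adjusted p = 0.0273). Each had 4 stress tumours above every no-stress tumour. The PARP9 call was lost without any 1 of no-stress replicates 1, 3, 4 and 5 or stress replicates 1, 2, 3 and 5. That of DTX3L was lost without no-stress replicate 1 or 3 or stress replicate 1, 2 or 3, and that of PARP14 without those or stress replicate 5.

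The tumours of mice restrained after transplantation were compared with the same no-stress tumours. Of the 44 genes none was called in post-stress against no stress, and none had an unadjusted p under 0.05. Over all tested genes 0.596% were called higher and 0.246% lower, and 15.2% had an unadjusted p under 0.05. The median log2 fold change was -0.19 (-0.62 to 0.17), with 33 estimates below 0 and 11 above, and the lowest adjusted p was 0.514. No gene had 4 post-stress tumours above every no-stress tumour. None was called in any of the 25 alternative settings, DESeq2's Wald test included, in which the median ran from -0.33 to 0.04. OASL and CMPK2 had the lowest estimates, both -0.62, and neither passed (adjusted p = 0.514 and 0.640).

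Both restrained groups were also set against each other. None of the 44 genes passed in stress against post-stress with edgeR's quasi-likelihood test, and 41 had an unadjusted p under 0.05, against 11.1% of all tested genes. Over all tested genes 0.0259% were called higher and 0.013% lower. The median log2 fold change was 1.31 (0.00 to 2.22), and the lowest adjusted p was 0.0747, for SP110. In 41 of the 44 at least 4 stress tumours lay above every post-stress tumour (93.2%), which held for 4.72% of all tested genes. Without stress replicate 4, 37 of the 44 and 1.21% of all tested genes passed. Without no-stress replicate 2 these were 2 of the 44 and 0.0832%. Stress replicate 4 was the lowest of its group for 42 of the 44, so that leaving it out favours such calls. The rise against no stress was therefore called in 1 restrained group and not in the other, and with all 15 tumours the difference between those groups was called for none of the 44 genes with edgeR's quasi-likelihood test or limma-voom and for 37 with DESeq2's Wald test. DESeq2's Wald test called 1.32% of all tested genes here. This comparison and the one against no stress share the stress tumours.

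Of the interferon genes themselves little RNA was counted. Among 10 looked up, IFNE, an interferon made by epithelia, passed the filter, and IFNA2 and IFNG were at 0 in all tumours. IFNE averaged 5.66 ± 1.93 CPM without stress and 9.11 ± 2.198 with it (SD, n = 5; adjusted p = 0.0759). IFNL1, a type III interferon, had 1, 3, 0, 0 and 0 counts in no-stress replicates 1 to 5, 16, 3, 10, 1 and 7 in the stress tumours and 1, 5, 1, 1 and 2 in the post-stress tumours. IFNB1, a type I interferon, had 6 counts over the no-stress, 14 over the stress and 5 over the post-stress tumours. IFNL2 had 9, 27 and 3, and IFNL3 had 11, 16 and 9 in the same order. Apart from IFNE, no ligand had more than 61 counts over 15 libraries of at least 12877165 human counts, and their difference was not tested. IFNL2, IFNL3 and the IFNA genes have near-identical copies, and reads that fit several can have been split or dropped.

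Receptors and kinases of the pathway were looked up as well. Of 9 such genes none was called in stress against no stress with edgeR's quasi-likelihood test or limma-voom, 1 (JAK2, adjusted p = 0.0268) was called with DESeq2's Wald test, and 3 had an unadjusted p under 0.05. The log2 fold changes of JAK2 (0.43), IFNAR1 (0.21) and IFNGR2 (0.73), which had the smallest p of the 9, did not pass with edgeR (adjusted p = 0.0554, 0.0751 and 0.130). The median of the 9 was 0.21.

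Of 14 genes that lead from nucleic acid to interferon production 12 were tested, and 3 rose (25%) and 1 fell, against 5.23% and 5.22% of all tested genes. RIGI, a sensor of RNA ends, averaged 2.19 ± 1.32 CPM without stress, 9.34 ± 5.60 with stress and 3.88 ± 2.02 post-stress (SD, n = 5), a log2 fold change of 2.08 ± 0.48 between stress and no stress (SE; adjusted p = 0.0156). TICAM1, the adaptor of TLR3, rose by 0.59 and IFI16, a sensor of DNA, by 0.57 on the log2 scale (adjusted p = 0.00309 and 0.0129). MAVS, the adaptor of RIGI and IFIH1, fell by 0.40 (adjusted p = 0.0288). STING1 had 78 counts and AIM2 5 over all tumours, and neither was tested. The annotation used for counting is not given in the sources used here, and such counts are not read as the genes' levels. The MAVS call was lost without no-stress replicate 1 or 3 or stress replicate 1, 2 or 5.

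Of 9 tested negative regulators 3 rose (33.3%) and 1 fell, against 5.23% and 5.22% of all tested genes. SOCS3, an inhibitor of JAK signalling that many cytokines induce, averaged 66.8 ± 11.5 CPM without stress, 129 ± 23.0 with stress and 118 ± 17.9 post-stress (SD, n = 5). It was higher in all 5 stress tumours than in every no-stress tumour (adjusted p = 0.00168), and it was called in post-stress against no stress as well (adjusted p = 0.0104). IRF2 and SAMHD1 rose by 0.52 and 0.995 on the log2 scale (adjusted p = 0.00850 and 0.0465). PTPN1, a phosphatase of JAK2 and TYK2, fell by 0.24 (adjusted p = 0.0321). SAMHD1 was lost in 12 of 15 fits that left out 1 tumour, and passed without no-stress replicate 2, stress replicate 4 or post-stress replicate 1. PTPN1 was lost without no-stress replicate 1, 2 or 3 or stress replicate 1, 3 or 5.

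A second list of 40 interferon-stimulated genes, outside the 45, had 36 tested members. It too was chosen with earlier results of these data known and was measured in the same tumours, so it is not a separate check. Of these 25 rose (69.4%) and none fell, against 5.23% and 5.22% of all tested genes, and the median log2 fold change was 0.65 (-0.25 to 1.56). APOL2 had the smallest p, with 101 ± 12.4 CPM without stress, 163 ± 21.7 with stress and 114 ± 10.9 post-stress (SD, n = 5; adjusted p = 0.00131), and all 5 stress tumours above every no-stress tumour. SP100, a nuclear body protein related to SP110, rose by 0.92, TDRD7 by 0.64 and TRIM5, a restriction factor of retroviruses, by 0.62 (adjusted p = 0.00579, 0.00631 and 0.00863). None of the 36 was called in post-stress against no stress, where 0.596% of all tested genes were higher and 0.246% lower. PSMB8, PSMB9, TAP1 and IFI30 had 30, 33, 12 and 5 counts over all tumours and were not tested. Between 5.66% and 40.2% of their exon bases are shared with other annotated genes on either strand, how reads on such bases were counted is not given in the sources used here, and these counts are not read as expression levels. Of 13 genes known mainly as targets of type II interferon 8 were tested and 2 rose (25%), against 5.23% of all tested genes. These were GBP3 (0.79) and ICAM1 (0.88), with adjusted p of 0.0186 and 0.0298, while GBP2 and CD274 did not pass (adjusted p = 0.0514 and 0.0717). CXCL9 was at 0, CXCL10 had 8 counts and CXCL11 had 6 over all tumours. GBP3 no longer passed when replicate 1 of either the no-stress or the stress group was left out, and the ICAM1 call was lost without no-stress replicate 2 or 3 or stress replicate 1, 3 or 5.

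**Figure D4:**
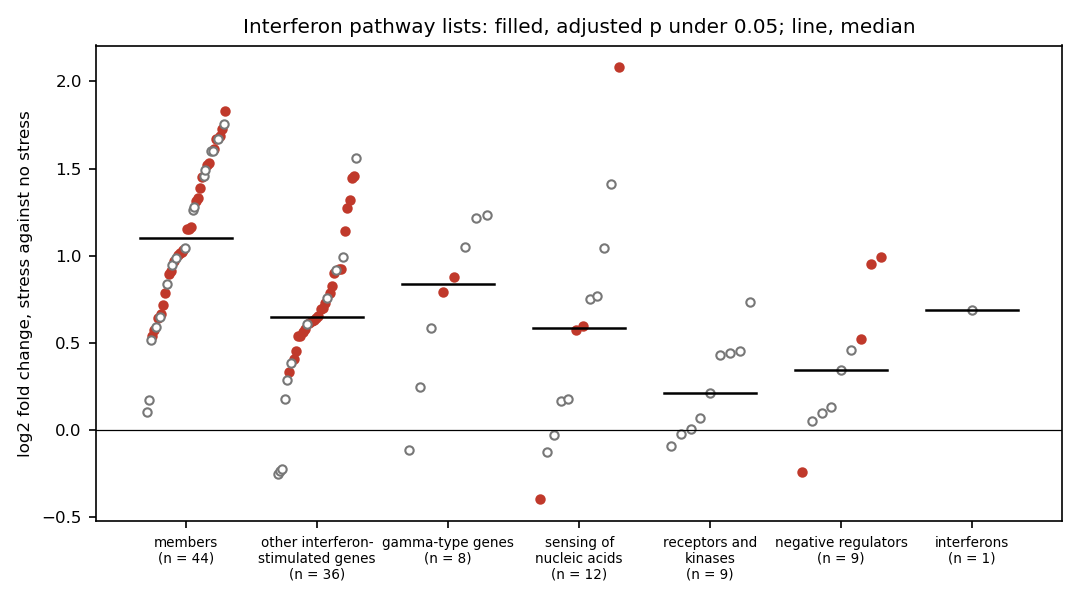
Log2 fold change between stress and no stress for each tested gene (points, sorted within a list), by list. Filled points passed an adjusted p under 0.05, and lines are medians: 1.10 for the 44 genes, 0.65 for 36 other interferon-stimulated genes and 0.21 for 9 receptors and kinases.

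The size of the difference varied less with the settings than the number of calls. Over 25 alternative settings of the analysis the median log2 fold change of the 44 genes between stress and no stress lay between 0.99 and 1.32. The number called lay between 2 and 39. In 43 of the 44 genes the estimate was above 0 in every setting.

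**Figure D5:**
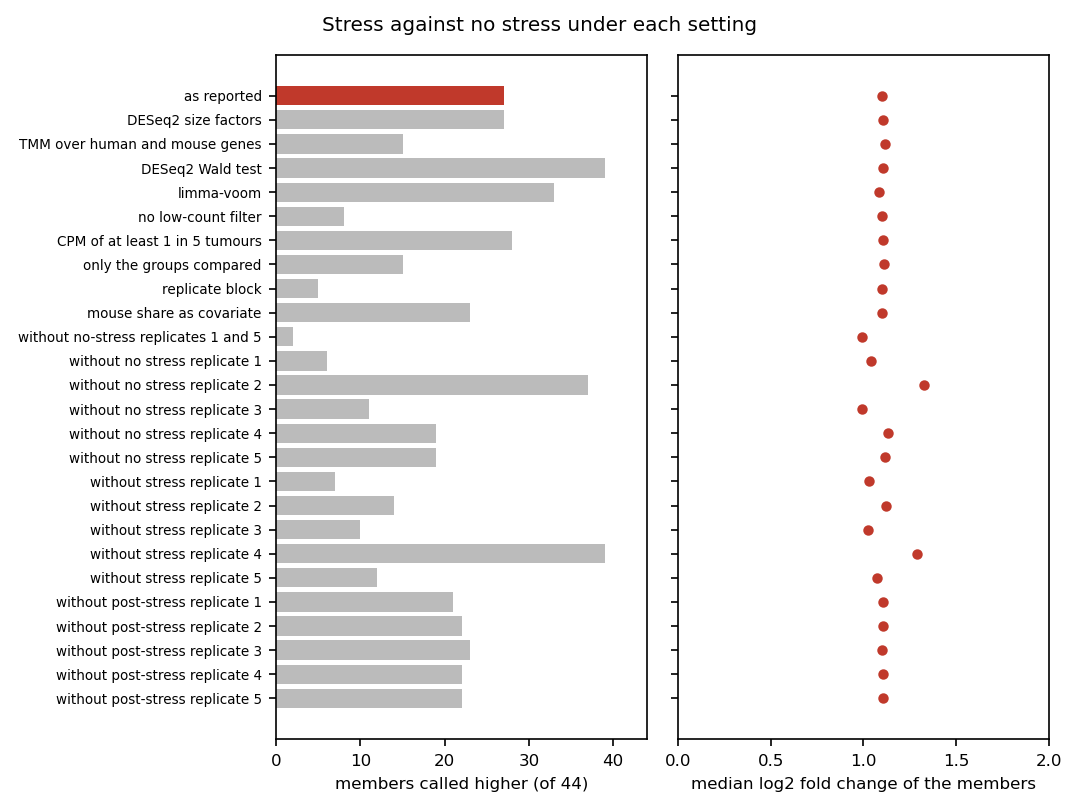
Left, number of the 44 genes called higher in stress against no stress under each setting (bars; red, as reported); right, their median log2 fold change. Bars run from 2 to 39, and medians from 0.99 to 1.32.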

How the data were processed

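RNA from 15 tumours, 5 in each of 3 groups, was extracted with TRIzol and made into libraries with a kit named Fast RNA-seq Lib Prep V2, per the labels' protocols. The authors deposited raw gene counts for 60649 human and 56941 mouse genes. Per the submitters' processing notes these came from Trimmomatic (0.39), HISAT2 (2.2.1, builds hg38 and mm10) and featureCounts (2.0.6). Not given in the sources used here were strandedness, annotation release and whether both genomes were aligned together, so that mouse reads can have been counted on human genes.

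Human counts alone were analysed. filterByExpr left 15435 genes with 99.8% of human counts. Counts were scaled with TMM, and all 15 tumours entered 1 robust edgeR quasi-likelihood fit (edgeR 4.0.16, limma 3.58.1, R 4.3.3; biological coefficient of variation 0.187), with Benjamini-Hochberg adjustment within each of 3 comparisons. The SE is the log2 fold change divided by the square root of F. Symbols came from the reference table (60463 of 60649 identifiers), gene models from GENCODE 29 and promoter windows from RefSeq. The procedure was tested on simulated data. Replicates are separate tumours, 1 library each. The p-values set the difference between groups against the spread between tumours, which was estimated from all 3 groups with information shared between genes.

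The genes and lists were chosen with earlier results of these data known. Named with all values were the 3 genes of each role with the smallest p in stress against no stress, and those with the highest and lowest level per length. Of other lists up to 4 with the smallest p were named. Some genes that this rule names are not reported here. Genes of other lists that did not pass the filter were named after their values were seen. Alternatives were DESeq2 size factors and Wald test (1.42.0), limma-voom, TMM over both species, 2 other filters, only the groups compared, the mouse share as covariate, a replicate block, and leaving out tumours.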

Additional observations from a re-analysis of the deposited data

Results flagged for a closer look

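Stress replicate 4 stood apart from the other 4 stress tumours. The gap from its summed level of the 44 genes (5858 CPM) to the next stress tumour (12494 CPM) took up 0.715 of the range of the group, above the limit of 0.71 that Dixon's 95% criterion sets for 5 samples. The same gap ratio was above the limit for IFITM3 (0.810), PARP14 (0.820), MX1 (0.790), HERC6 (0.789), SP110 (0.768) and PARP9 (0.739), and in each of these 6 genes stress replicate 4 was the low sample. In the no-stress group no gene of the 44 passed the limit. In the post-stress group replicate 2 was low for IFI35 (0.853) and replicate 5 was high for IRF7 (0.896). Chance marks about 1 in 20 groups, and the 44 genes vary together, so that these are not separate observations. The mouse share of stress replicate 4 was 21.8%, inside the range of the other stress tumours. Without it 39 of the 44 genes were called against no stress and 37 against post-stress. Over all tested genes these fits called 11.8% and 1.21%. Stress replicate 4 was singled out by its low values for these same genes. Leaving it out therefore favours such calls, and these counts are not a separate check.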

How the results depend on the processing

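The log2 fold change stayed above 0 in each of the settings for 43 of the 44 genes in stress against no stress and for 42 in stress against post-stress. The median in post-stress against no stress, -0.19 as reported, was 0.04 without no-stress replicate 2. The number of the 44 genes called higher in stress against no stress, 27 as reported, was 15 with TMM over human and mouse genes, 8 with no low-count filter, 15 with only the groups compared and 2 without no-stress replicates 1 and 5. It ran from 6 to 39 when 1 tumour was left out, and was 27 with DESeq2 size factors, 28 with a CPM of at least 1 in 5 tumours, 33 with limma-voom, 39 with DESeq2's Wald test and 23 with the mouse share as covariate. Over all genes that comparison called 1613, and 535 with TMM over both species, 546 without no-stress replicates 1 and 5, and 661 to 1834 without 1 tumour. Post-stress against no stress called 130, and 504 with DESeq2's Wald test, 49 with only the groups compared, 38 with the mouse share as covariate, 32 without no-stress replicates 1 and 5, and 37 to 144 without 1 tumour. In stress against post-stress 0 of the 44 were called, and 37 with DESeq2's Wald test and 0 to 37 without 1 tumour. Over all genes it called 6, and 0 with TMM over both species, 203 with DESeq2's Wald test, 36 with no filter, 1 with only the groups compared, 0 with the mouse share as covariate, and 0 to 189 without 1 tumour. TMM over both species moved the median of all genes to 0.13 in post-stress against no stress and -0.13 in stress against post-stress. With no filter 35033 genes shared the adjustment, and the other causes were not tested. Near the filter, as for most interferons, depth limits what can be said.

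With the replicate number as a block 5 of the 44 genes were called in stress against no stress, and 990, 57 and 0 genes over all in the 3 comparisons. Over all tested genes, the deviations of same-numbered tumours from their group means had correlations from -0.19 to 0.12, with 1 of 15 pairs over 0.1. Tumours of different numbers were not compared in this way, and the labels give no pairing. Whether same-numbered tumours share more than a number was not tested.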
